A study of Mus musculus with 39 samples.

Results

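Intact 2-cell mouse embryos were compared with 2-cell embryos that had been taken apart into their blastomeres. The comparison rests on 15 of the 39 libraries of the series. Of these, 5 were each made from 1 intact 2-cell embryo, and 10 were each made from 1 of the 2 blastomeres of 5 separated 2-cell embryos. The libraries were chosen by their labelled stage and by whether the embryo was labelled as whole or split. The counts of the sister blastomeres were summed, which gave 10 of the 19 embryos of the series, with 5 embryos in each group. The other 9 embryos were 4 intact and 5 separated 4-cell embryos, which entered the gene-wise fit and a single comparison of stages. All 2-cell embryos were labelled wild type and batch 1. Strain, litter, the age of the embryos in hours and the time spent as separated cells are not given in the labels, so p-values measure the spread between these embryos, part of which may be technical.

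The mouse zygote divides into a pair of blastomeres at a time when most of its messenger RNA was made in the oocyte, and the major wave of zygotic transcription starts at the late 2-cell stage. Blastomeres of this stage are totipotent, and a single blastomere parted from its sister can develop into a whole mouse. Smart-seq2 primes polyadenylated RNA with oligo-dT, copies it with template switching and amplifies the cDNA by PCR before fragmentation, and without molecular identifiers a count is a read and not a molecule. A separated embryo differs from an intact embryo here in 4 ways at the same time. Its cells had been parted, each library started from the RNA of a single cell, a pair of libraries was summed, and more reads were counted. These cannot be told apart in a comparison of the summed embryos. Comparing single blastomere libraries with intact embryos at equal depth, and then joining the sisters at that same depth, separates the input per library from the depth, but not from the separation itself.

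Intact embryos held 7.54, 7.2, 9.89, 8.49 and 7.16 M counts (M, 1000000 counts) and separated embryos 43.3, 49.7, 22.7, 56.2 and 14.2 M. Every separated embryo lay above every intact embryo, with means of 8.06 ± 1.16 and 37.2 ± 17.99 M (SD, n = 5 each, exact permutation p = 0.00794, two-sided, the smallest that 5 against 5 can give). Single blastomere libraries ranged from 5.93 to 44.05 M counts. Of 17 marker genes of the 2-cell embryo, 17 had counts in both groups, with a summed level of 31258 to 51963 CPM (counts per 1000000 counts) in intact and 30063 to 51038 CPM in separated embryos. Of 18 markers of cumulus and granulosa cells, which surround the egg, 10 were at 0 in every 2-cell embryo, among them Fshr, Foxl2, Cyp19a1 and Inha. The summed level of that list was 4.29 to 44.2 CPM in intact and 1.104 to 45.8 CPM in separated embryos. Among its members, Amhr2 stood at 10.8, 25.5, 0, 31.8 and 42.8 CPM in intact and at 0.533 to 8.64 CPM in separated embryos. Tnfaip6 had 1825 counts in blastomere 2 of separated embryo 2, so like sums do not mean like members. Of 11 sperm markers, 6 were at 0 in all 10 embryos, and the list summed to 24.3 to 91.9 CPM in intact and 8.87 to 58.4 CPM in separated embryos. Of 12 blood markers, 8 were at 0, and the list summed to 4.39 to 25.1 CPM in intact and 4.62 to 31.8 CPM in separated embryos, with counts of the hemoglobin gene Hba-a1 in all 10 embryos (0.9899 to 20.8 CPM). Of 7 oviduct markers, 2 were at 0, and the list summed to 0 to 9.54 CPM in intact and 0 to 15.5 CPM in separated embryos. The part of these markers in the results was not tested.

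At equal depth, a library from a single blastomere held fewer genes than a library from an intact embryo, and the sisters of an embryo, joined at the same total depth, held about as many as an intact embryo. Depth was set to 5.93 M counts, the total of the smallest 2-cell library, and the number of genes with a count at that depth was computed exactly from each library's counts. Intact embryos held 11099.7, 11652, 10750.1, 12263 and 11233 genes. Blastomere 1 of separated embryos 1 to 5 held 10104, 8963, 8503, 9600.2 and 10529 genes, and blastomere 2 held 9662, 9371, 8697, 8784 and 11063. Of the blastomere libraries, 9 of 10 lay below the lowest intact embryo, and the library above it, blastomere 2 of embryo 5, was that smallest library and was not thinned. The mean over sisters was 9528 ± 842 genes against 11399 ± 580.5 in intact embryos (SD, n = 5 embryos each). The difference was −1872 genes, a ratio of 0.836 (exact permutation p = 0.0159, two-sided), with a 95% interval from the inverted test of −3052 to −828 genes.

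When the same total was shared equally between the sisters and their genes were joined, separated embryos held 11854, 11089, 10624, 11103 and 12719 genes. These values span the intact range, with a mean of 11478 ± 822 genes and a difference of 78.6 genes (95% interval −1026 to 1119, exact permutation p = 0.881). With the sisters summed and no equalising of depth, separated embryos had more genes with a count than intact embryos. They had 14148, 13427, 11892, 13809 and 13717 genes and intact embryos 11385, 11891, 11268, 12621 and 11419 (exact permutation p = 0.0159). Single blastomere libraries, also without equalising, had 8932 to 12166 genes. Separated embryo 3 had the lowest number on each of these scales and separated embryo 5, the shallowest of the separated embryos, the highest at equal depth.

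**Figure D1:**
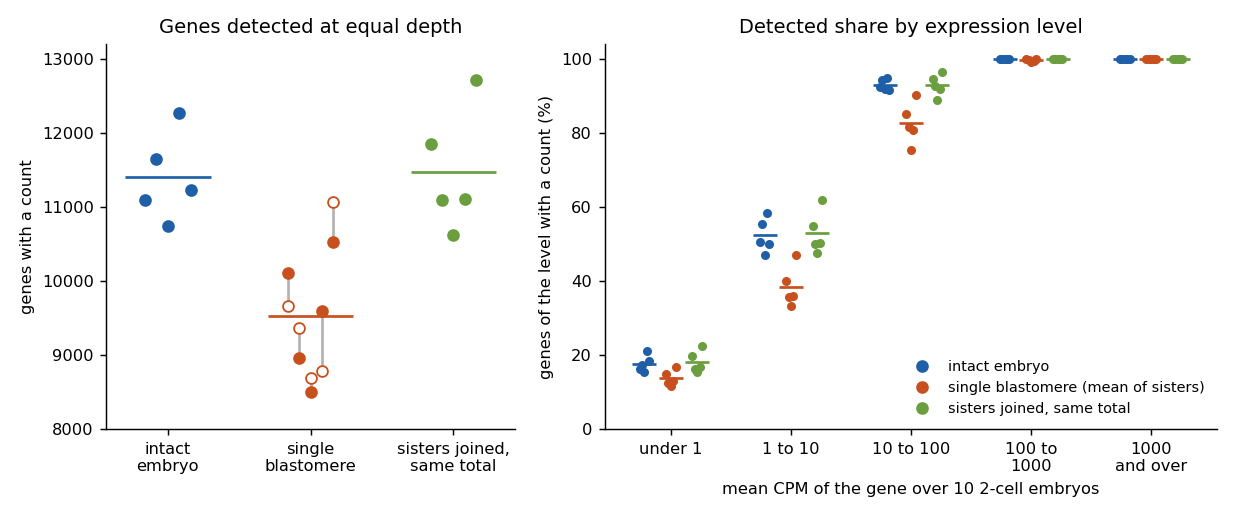
Left, genes with a count at 5.93 M counts in 5 intact embryos (blue), in the single blastomeres of 5 separated embryos (orange, filled for blastomere 1, open for blastomere 2, sisters joined by a line) and in sisters joined at the same total (green), with lines at the means; the vertical axis does not start at 0. Right, the share of genes with a count by expression level, 1 point per embryo. Single blastomeres averaged 9528 genes and intact embryos 11399, and the distance is widest from 1 to 100 CPM.

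The genes missing from single blastomere libraries were those of low and middle levels. Genes were grouped by their mean CPM over the 10 embryos, using all 23324 genes with a count at this stage. At 10 to 100 CPM (4935 genes), intact embryos held 92.4, 94.3, 91.8, 94.9 and 91.6% of the genes and blastomeres, as the mean of sisters, 85.1, 81.6, 75.5, 80.7 and 90.2%. No separated embryo reached the lowest intact value. The means were 92.98 ± 1.52 and 82.6 ± 5.46% (SD, n = 5 each, exact permutation p = 0.00794, 0.0198 after Benjamini-Hochberg adjustment over 5 levels). At 1 to 10 CPM (6900 genes) the shares were 52.3 ± 4.57 and 38.4 ± 5.42% (exact adjusted p = 0.0198), again with no overlap. Under 1 CPM (10075 genes) they were 17.7 ± 2.19 and 13.8 ± 2.03% (exact adjusted p = 0.0397), a difference that did not pass when any of 8 of the 10 embryos was left out, with exact adjusted p up to 0.0794.

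At high levels few genes were missing from any library. At 100 to 1000 CPM (1316 genes) intact embryos held 99.95 ± 0.0674% of the genes and single blastomeres 99.69 ± 0.297% (exact adjusted p = 0.0794, passing at 0.0265 without intact embryo 3 and at 0.0397 without separated embryo 5). All 98 genes of 1000 CPM and over were present in every library. Joined at the same total, the sisters held 92.9 ± 2.94% of the genes of 10 to 100 CPM and 52.9 ± 5.698% of those of 1 to 10 CPM. The differences from intact embryos were −0.0788 points (95% interval −3.38 to 3.54) and 0.584 points (−7.98 to 8.11), both with an exact adjusted p of 1. At 10 to 100 CPM the gap was found at every transcript length. Blastomeres minus intact embryos gave −10.2 points for genes whose longest transcript is under 1 kb, −11.7 from 1 to 3 kb, −9.91 from 3 to 6 kb and −8.81 for 6 kb and over, which was not tested by length.

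Within a separated embryo, a gene of middle level was often present in only 1 of the sisters. At 10 to 100 CPM and equal depth, 71.5 ± 8.02% of the genes were found in both sisters, 22.3 ± 5.16% in 1 of them and 6.25 ± 2.91% in neither (SD, n = 5 embryos). At 1 to 10 CPM the shares were 21.3, 34.1 and 44.6%, and at 100 to 1000 CPM 99.4, 0.6004 and 0.00866%. Among embryos the share found in a single sister at 10 to 100 CPM ran from 14.6 to 28.6%.

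Gene groups differed in how many members a single blastomere library held, beside a ratio to intact embryos of 0.836 over all genes. Of 88 ribosomal protein genes with a count, which are abundant, intact embryos held 86.6 ± 1.06 and single blastomeres 86.1 ± 0.756 at equal depth. Of 76 genes of nucleolar ribosome biogenesis, the numbers were 73.3 ± 1.95 and 67.7 ± 4.03, and 71.9 with the sisters joined. Of 45 genes of adhesion, junctions and polarity, which include the cadherins and their catenins, 31.4 ± 4.81 were found in an intact embryo, 25.98 ± 2.81 in a blastomere and 31.98 in joined sisters. For 31 lineage and pluripotency regulators, the values were 23.5, 20 and 23.5. Glycolysis and hypoxia genes (29) gave 18.5, 14.3 and 17.95. The groups also differ in level, with a median over tested members of 260 CPM for ribosomal proteins and 49.7 CPM for ribosome biogenesis. It was 11.1 CPM for lineage regulators, 9.07 CPM for adhesion and 8.58 CPM for glycolysis. These counts of list members are descriptions, given for a part of the groups. Whether a group departs from other genes of its level was not tested.

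Taking only 1 sister of each separated embryo in place of the sum gave calls in a single direction. With blastomere 1 alone, 5 of 13365 genes passed at an adjusted p under 0.05 (edgeR quasi-likelihood test) and all were lower in blastomeres (0.0374% of genes tested). With blastomere 2 alone, 10 of 13324 passed, again all lower (0.0751%), and 0 genes were shared by these lists. At an unadjusted p under 0.05, 1274 genes were lower and 517 higher with blastomere 1 (13.4% in all), and 1310 and 465 with blastomere 2 (13.3%). At 1 to 10 CPM the lower and higher counts were 757 and 263 with blastomere 1, while at 100 to 1000 CPM they were 14 and 37. With the sisters summed, 324 genes of 1 to 10 CPM were lower and 389 higher. The fits with 1 sister used a single scaling, edgeR's trimmed mean of M-values, and were not repeated with another. The blastomere libraries also differed in depth, from 5.93 to 44.05 M counts.

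The genes behind these calls show what a missing transcript looks like; they were picked for the text after their values were seen. Yes1, a Src family tyrosine kinase, had 0, 0, 0, 1 and 1 counts in blastomere 1 of embryos 1 to 5 and 464, 298, 526, 785 and 8 in blastomere 2, beside 129, 205, 20, 38 and 78 in the intact embryos. It was all but missing from blastomere 1 in every embryo, and well counted in blastomere 2 of 4 embryos. Krtcap2, a subunit of the oligosaccharyltransferase that glycosylates proteins in the endoplasmic reticulum, had 1, 189, 221, 1010 and 221 counts in blastomere 1 and 0, 1, 0, 0 and 0 in blastomere 2, with 134, 76, 72, 190 and 68 in intact embryos. Here blastomere 2 was the empty sister. Cdc37, the co-chaperone that brings kinases to Hsp90, had 375, 158, 30, 1174 and 63 and 2, 3, 0, 2 and 0 counts in the sisters. After summing, Yes1 stood at 11.8, 6.82, 25.5, 15.5 and 0.606 CPM in separated and 17.9, 33.7, 1.99, 4.32 and 10.1 CPM in intact embryos, and the groups overlapped. The numbers 1 and 2 of the sisters are labels, and the sources used here do not say how they were given. A call with 1 sister number alone picks genes that are low in that number in most embryos. The pattern of these genes thus follows from how they were picked, and is no sign of a lasting difference between sisters 1 and 2.

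Rrp1, a nucleolar protein of ribosome assembly, differed from these genes in being scarce in both sisters. It had 65, 29, 224, 37 and 147 counts in intact embryos and 0, 0, 0, 0 and 0 in blastomere 1 and 0, 0, 0, 43 and 0 in blastomere 2. In CPM of the embryo, the intact values were 9.001, 4.77, 22.3, 4.203 and 19.01 and the separated values 0, 0, 0, 0.847 and 0, without overlap. The summed embryos gave a log2 fold change −6.01 ± 1.39 (SE), adjusted p = 0.213 (edgeR), so that the call held with blastomere 1 alone (adjusted p = 0.00281) and not with the sum. Bysl, another ribosome assembly factor and a call with blastomere 2 alone, had 19, 26, 224, 8 and 28 counts in intact embryos, 0, 0, 0, 165 and 0 in blastomere 1 and 0, 0, 0, 0 and 0 in blastomere 2. Mrps12, Pot1b and Hspb11 were the other calls with blastomere 1, and Yif1b, Tent5c, Bcl7b, Med22, Hadha, Gm20546 and Sapcd2 the other calls with blastomere 2.

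**Figure D2:**
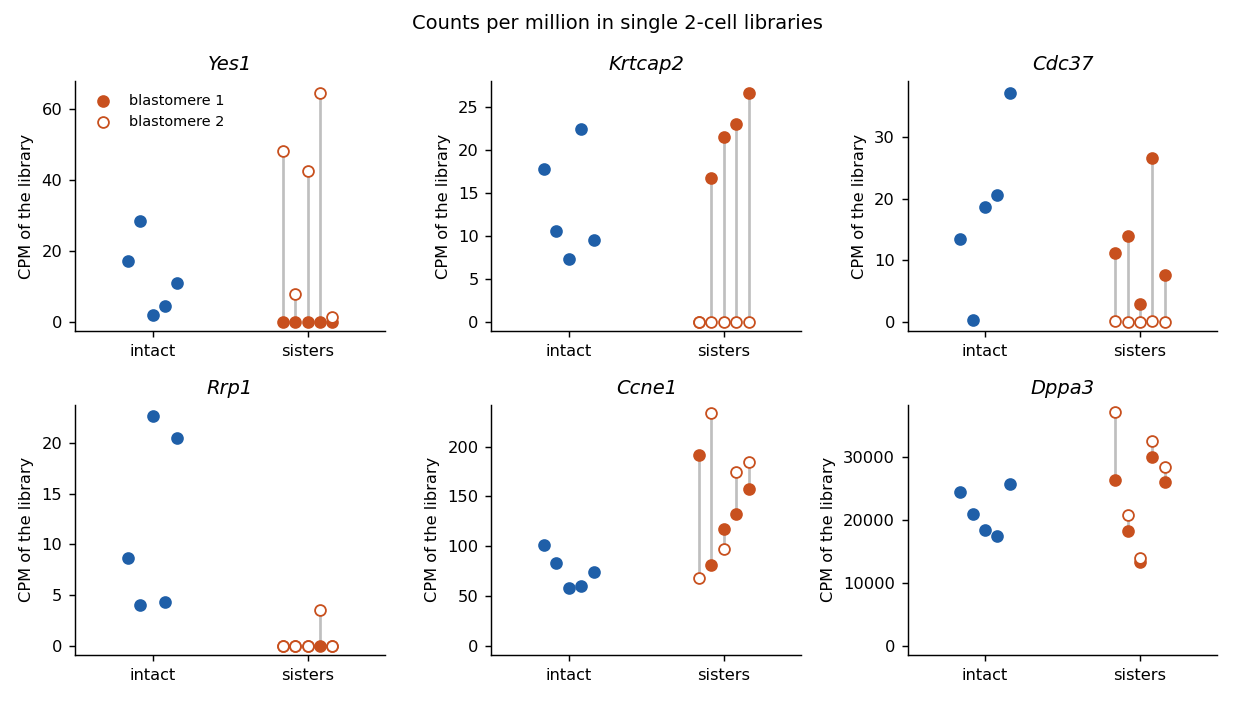
CPM of single libraries, by the library's own total, for 6 genes: intact embryos in blue, blastomere 1 filled orange, blastomere 2 open orange, sisters of an embryo joined by a line. Yes1 and Krtcap2, which were picked from the calls with 1 sister number alone, are near 0 in that sister number of every embryo. Ccne1 and Dppa3 are present in all 15 libraries.

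Single blastomere libraries also varied more from embryo to embryo at middle levels. With every library or sum thinned to the same total, the standard deviation (SD) of log2 CPM over 5 libraries had a median over genes of 10 to 100 CPM of 1.36 in intact embryos, 1.397 in summed sisters, 2.55 in blastomere 1 and 2.64 in blastomere 2. At 100 to 1000 CPM the medians were 0.608, 0.585, 0.712 and 0.698, and at 1000 CPM and over 0.403, 0.395, 0.424 and 0.457. Summed sisters were close to intact embryos at each of these levels, and the single blastomeres stood apart mainly at 10 to 100 CPM. These medians carry no test, since genes are not replicates.

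**Figure D3:**
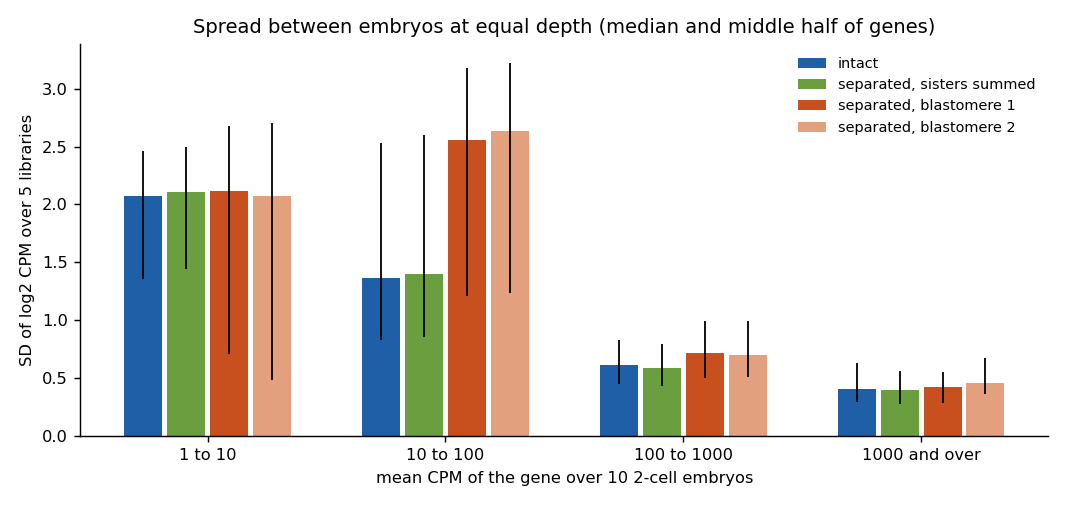
SD of log2 CPM over the 5 libraries of a kind, with every library or sum thinned to 5.93 M counts, by mean CPM of the gene; bars give the median over genes and black lines the interquartile range. At 10 to 100 CPM the bars stand at 1.36, 1.397, 2.55 and 2.64, and at 1000 CPM and over at 0.403 to 0.457.

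Summed embryos were no more alike within a group than across groups. Over 6349 genes of at least 10 CPM, the mean correlation of log2 CPM was 0.528 between intact embryos (10 pairs, 0.422 to 0.583), 0.515 between separated embryos (10 pairs, 0.4499 to 0.572) and 0.533 across the groups (25 pairs, 0.437 to 0.596). At equal depth, intact libraries correlated at 0.5803 with each other, at 0.545 with single blastomeres, and blastomeres of different embryos at 0.4996. These are descriptions across genes, and the pairs share libraries.

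Gene by gene, summed separated embryos differed from intact embryos at 2 of 14119 genes (0.0142%, adjusted p under 0.05, edgeR quasi-likelihood test), and both were higher in separated embryos (0.0142% of genes, against 0% lower). Idh3b encodes a subunit of mitochondrial isocitrate dehydrogenase and lies on chromosome 2, 130279309 to 130284547, minus strand (GRCm38, GENCODE M21). Its CPM, scaled by TMM (edgeR's trimmed mean of M-values) as are all CPM of embryos from here on, was 0.138, 0, 0, 0 and 0 in intact and 27.01, 1.602, 5.097, 3.98 and 14.1 in separated embryos. All separated embryos lay above all intact embryos, with 1 count in the intact group against 1650 (log2 fold change 8.41 ± 1.26 (SE), adjusted p = 0.0247; ratio of rates 389, 95% counting interval 69.6 to 15357). By library, blastomere 1 of embryos 1 to 5 had 0.832, 6.17, 10.2, 0 and 21.9 CPM and blastomere 2 108, 0, 0, 16.6 and 4.55 CPM. The annotated Idh3b overlaps Nop56 on the other strand, and strand use in counting is not given, so reads there cannot be told apart. Nop56, a ribosome biogenesis factor looked at for this overlap, had 53.8 ± 31.8 and 83.6 ± 59.3 CPM (log2 fold change 0.63 ± 0.50 (SE), adjusted p = 0.949).

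Mast3, a microtubule-associated serine/threonine kinase gene on chromosome 8, 70778117 to 70805054, minus strand, had no count in any intact embryo. It overlaps the microRNA gene Mir7240 on the other strand. In separated embryos it stood at 9.696, 11.7, 0.534, 6.54 and 7.21 CPM, at least 94.9-fold higher than a floor of 3 counts over the intact group, as the lower of the values from the pooled counts and from the mean CPM (adjusted p = 0.0247, edgeR). In separated embryos 1 and 2 both sisters held it, and in embryos 3 to 5 a single sister did. Both genes are of low level, with means of 5.19 and 3.57 CPM over the 10 embryos, and they are named because they are the whole list of calls. Neither passed when the 2 separated 4-cell embryos of batch 2, intact embryo 1 (adjusted p = 0.0701 for both) or the 4-cell embryos as a whole were left out of the fit, and Mast3 did not pass without separated embryo 2 (adjusted p = 0.0568). With all 19 embryos thinned to 2.74 M counts, the calls were Med23, a Mediator subunit, and Rrp1, both lower in separated embryos.

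At an unadjusted p under 0.05 there were 1481 genes (10.5%), 809 higher and 672 lower. By level the share was 26.6% of the genes under 1 CPM and 12.5% at 1 to 10 CPM. It was 2.82% at 10 to 100, 5.09% at 100 to 1000 and 8.16% at 1000 CPM and over. Of the 2080 tested genes under 1 CPM, 596 had no count in intact and 518 none in separated embryos. These numbers rest on the fit of all 19 embryos. With only the 2-cell embryos in the fit, far fewer genes had such a p, as given below under processing. With TMM, all separated embryos lay above all intact embryos in 61 genes (0.432%), and all lay below in 17 (0.12%). With DESeq2 size factors as the scaling, the numbers were 40 above and 32 below, so the size of the excess above depended on the scaling. How many such genes chance alone would give was not computed. After thinning every embryo to 7.16 M counts, 7 genes had a count in all 5 separated embryos and in no intact embryo: Mast3, the glutathione synthetase gene Gss, Adnp, Emx2, Fhit, A230056P14Rik and Gm26340. In 6 genes it was the reverse: Apbb1, Ifi30, Mob3a, Edem3, Tshz1 and Gm15672. These 13 genes were picked by that pattern, so no test is attached. Their mean level was 0.0839 to 3.57 CPM. DESeq2 called 492 of 13467 genes (3.65%), 216 higher and 276 lower. Of these, 373 were at 1 to 10 CPM, 91 under 1 CPM, and 269 had no count in 1 of the groups.

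How narrowly a difference could be bounded depended on the level of the gene. The median standard error of the log2 fold change was 1.97 under 1 CPM, 1.95 at 1 to 10, 0.93 at 10 to 100, 0.37 at 100 to 1000 and 0.26 at 1000 CPM and over. An estimate of more than 2-fold in either direction was found for 63.99, 52.2, 20.2, 2.05 and 0% of the genes of these levels. The 95% interval of 699 genes of at least 10 CPM (4.95% of all genes tested) lay wholly within 2-fold. Among them were 539 of 1316 genes of 100 to 1000 CPM (40.96%), 75 of 98 of 1000 CPM and over (76.5%), and 85 of 4931 at 10 to 100 CPM. At 10 to 100 CPM these were 1.72% of the genes, so for most genes of that level the interval reached past 2-fold in at least 1 direction. Genes under 10 CPM were not judged by their interval, here or below, and count as not within 2-fold.

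**Figure D4:**
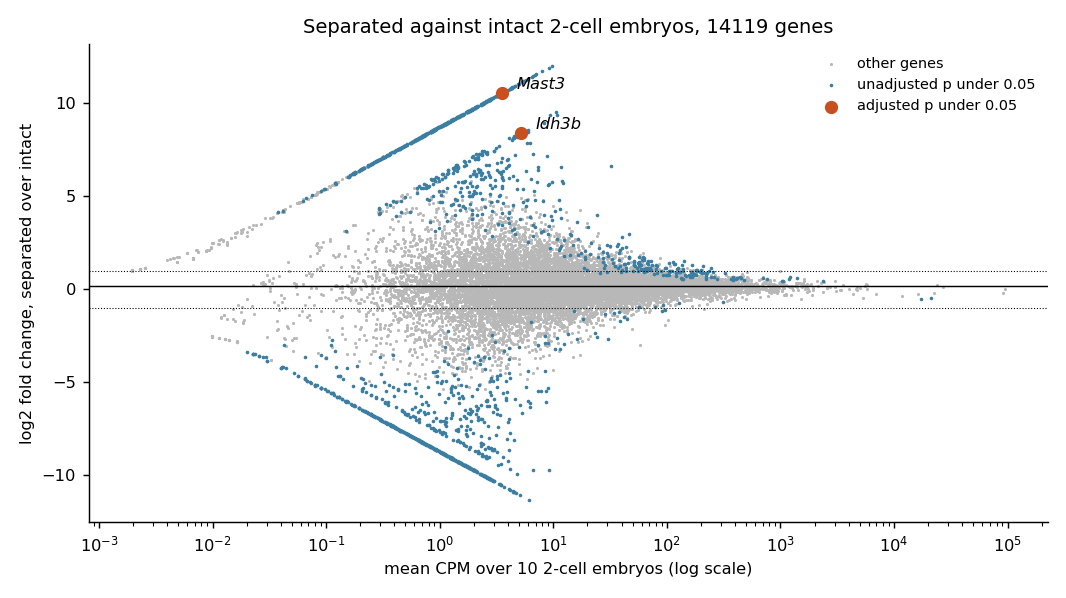
Log2 fold change of separated over intact 2-cell embryos against the mean CPM over 10 embryos (log scale), for 14119 genes; blue points have an unadjusted p under 0.05, the solid line is the median of all genes (0.16) and dotted lines mark 2-fold. The straight outer rows are genes without a count in 1 of the groups, and the cloud narrows from a median standard error of 1.95 at 1 to 10 CPM to 0.26 at 1000 CPM and over.

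The direction of small differences rested on the scaling of the embryos. With TMM the median log2 fold change of all genes was 0.16, and with DESeq2 size factors in the same fit −0.01, a shift of 0.17. Relative to the median of all genes, the levels differed little, at 0.00, 0.03, 0.02 and −0.02 from 1 to 10 CPM upward with TMM. At 100 to 1000 CPM, 65 genes were higher and 2 lower at an unadjusted p under 0.05 with TMM, and 24 and 17 with size factors. At 10 to 100 CPM the counts were 117 and 22, and 61 and 52. Of the genes of 100 to 1000 CPM, 12 had all separated embryos above all intact and 0 below with TMM, and 5 and 3 with size factors. An excess of genes on the higher side at these levels is therefore not a result that holds under both scalings. Values below are from TMM, so a log2 fold change is to be read against 0.16.

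The most abundant transcripts of the embryo are maternal and mitochondrial, and those other than the complex I subunits given below were at like levels in both groups. Dppa3 (Stella), a maternal protein that guards methylation marks in the zygote, stood at 25608, 24801, 18135, 16874 and 23873 CPM in intact and 31633, 22935, 14987, 33921 and 25942 CPM in separated embryos. The groups overlapped fully (log2 fold change 0.24 ± 0.20 (SE), adjusted p = 0.959, 95% interval −0.17 to 0.66). The oocyte-maturation genes Omt2a and Omt2b, near-identical copies between which reads may be split, had log2 fold changes of −0.24 ± 0.32 and −0.21 ± 0.44. Omt2a ranged from 12249 to 23629 CPM in intact and from 11339.5 to 19702 CPM in separated embryos. For Dppa3 and Omt2a the interval lay within 2-fold, and for Omt2b, at −1.12 to 0.70, it reached past 2-fold lower. The mitochondrial 16S ribosomal RNA gene mt-Rnr2, at 82009, 126212, 91773, 98491 and 67477 and 86491, 86574, 129461, 92390.2 and 83609 CPM, differed by 0.04 ± 0.17 on the log2 scale, and the cytochrome b gene mt-Cytb by −0.18 ± 0.21. For mt-Rnr1 the log2 fold change was 0.15 ± 0.20 and for mt-Co1 −0.23 ± 0.26.

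The mitochondrially encoded complex I subunits among these genes, mt-Nd2, mt-Nd1 and mt-Nd4, leaned lower without passing. mt-Nd2 stood at 18719, 25519.6, 21974, 17181 and 17564 CPM in intact and 12196, 13298, 19946, 11928 and 13095 CPM in separated embryos, where embryo 3 alone lay among the intact values (log2 fold change −0.52 ± 0.17 (SE), adjusted p = 0.244, unadjusted p = 0.00699). mt-Nd1 differed by −0.49 ± 0.20 (adjusted p = 0.341, edgeR) and mt-Nd4 by −0.34 ± 0.19 (adjusted p = 0.615, edgeR). The share of all counts in mitochondrially encoded genes was 25.3, 33.1, 28.4, 30 and 22.6% in intact and 22.4, 22.05, 33.2, 21.2 and 22.9% in separated embryos (exact permutation p = 0.278, 0.694 adjusted over 10 classes). Separated embryo 3 was the highest of all 10, and without it the difference was −5.71 points with an adjusted p of 0.106 (exact permutation test), against −3.502 points with it. The 27 mitochondrially encoded genes tested had a median log2 fold change of 0.04, with 1 higher and 2 lower at an unadjusted p under 0.05. None of the other 9 classes of counts passed. Nuclear genes with a longest transcript of 3 kb and over took 25.8 ± 1.47 and 28.1 ± 1.74% of the counts (exact permutation p = 0.0556, adjusted 0.503), and maternal oocyte transcripts 8.55 and 8.11%.

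No member of any of the 23 gene groups examined, apart from marker lists, passed in either direction, against 2 of 14119 genes in all (0.0142%). With size factors the medians of the heat shock, unfolded protein, cytoskeletal, oxidative stress, cholesterol, maternal, zygotic, mitochondrial, ribosomal protein and oxidative phosphorylation lists turned from above to below 0. Of the 14119 genes tested, 239 had no count in any 2-cell embryo and were tested through their counts at the 4-cell stage, with a 2-cell fold change that carries no data. Without them the median of all genes was 0.18. Among members entered by gene name, such genes were found in 5 lists, whose medians are given over members with a 2-cell count. They were Sox21, Foxa1 and Sall1 among lineage regulators, Nr4a3 among immediate early genes and Ccn1 in the Hippo list. The others were Txnrd2 in the oxidative stress list and Ercc5 among p53 targets. Members entered by a name pattern were not checked for this. They make up the mitochondrially encoded, histone and proteasome lists and most of the ribosomal protein and oxidative phosphorylation lists. Maternal transcripts stored in the oocyte had a median log2 fold change of 0.01 (71 genes tested, 36 above 0), which is −0.15 relative to the median of all genes and −0.17 with size factors. The zygotic 2-cell genes, which include the Zscan4 family, had 0.11 (43 tested), with 1 member at an unadjusted p under 0.05 in each direction. Nr5a2, a nuclear receptor that works in zygotic genome activation, stood at 28.8, 48.3, 38.1, 58.2 and 45.3 CPM in intact and 74.4, 139.8, 38.6, 87.9 and 75.8 CPM in separated embryos. Separated embryo 3 lay among the intact values and the other 4 above them (log2 fold change 0.93 ± 0.34 (SE), adjusted p = 0.264). Fbxw16, an oocyte F-box gene of a large family of close copies, had 113 ± 49.5 and 218 ± 60.8 CPM (log2 fold change 0.95 ± 0.41 (SE), adjusted p = 0.371).

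Among the members of the lists with at least 100 CPM, the cell cycle gene Ccne1 had the smallest p. It encodes cyclin E1, the partner of Cdk2 at the entry into S phase, and lies on chromosome 7, 38097984 to 38107534, minus strand (GRCm38). Intact embryos had 105, 98.7, 57.5, 57.4 and 68.7 CPM and separated embryos 181, 226, 117, 157 and 161 CPM. The groups did not overlap under either scaling (log2 fold change 1.12 ± 0.28 (SE), adjusted p = 0.244, 95% interval 0.54 to 1.70). Of 1316 genes of 100 to 1000 CPM, 12 lay wholly above with TMM and 5 with size factors. DESeq2 gave Ccne1 an adjusted p of 0.0125, among 492 calls in 13467 genes (3.65%), and Dhx9 of the same level 0.000975. Ccne1 was named for its small p, so these values from the same counts are no further support. Single blastomeres ranged from 67.6 to 233 CPM of the library. Tipin, of the replication fork protection complex, had 1119, 1106, 1182, 1010.0 and 1072 and 2570.2, 1863, 1239, 1500.5 and 1298 CPM (log2 fold change 0.63 ± 0.27 (SE), adjusted p = 0.376), and overlapped with size factors. Its partner Timeless went the other way, at 2.77, 0, 0, 27.4 and 0.129 CPM in intact and 0.0254, 0.206, 0, 0.0394 and 0.0674 CPM in separated embryos (log2 fold change −6.33 ± 1.68 (SE), adjusted p = 0.244), with the intact value resting on embryo 4. The S phase list had a median of 0.36 (63 tested, 5 higher and 1 lower at an unadjusted p under 0.05, but 1 and 1 with size factors), and the G2 and M phase list 0.40 (52 tested, 44 above 0, or 32 with size factors, and 2 higher at an unadjusted p under 0.05, or 0 higher and 1 lower with size factors). Prc1, which bundles microtubules of the central spindle, had 358 ± 49.8 and 547 ± 172 CPM (log2 fold change 0.61 ± 0.24 (SE), adjusted p = 0.294).

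Ribosomal protein genes had the highest share of intervals within 2-fold among the 23 groups. Of 87 tested, the interval of 55 lay within 2-fold (63.2%, against 33.3% of mitochondrially encoded and 20% of proteasome genes), 0 had an unadjusted p under 0.05 (2 lower with size factors), and the median was 0.12. The smallest p among them was that of Rpl4, with 48.6, 78.1, 157, 177 and 133 and 170.3, 126, 279, 153 and 194 CPM (log2 fold change 0.64 ± 0.33 (SE), adjusted p = 0.564), and Rplp0 leaned lower (−0.64 ± 0.34). Proteasome genes had a median of 0.35 (35 tested, 2 higher at an unadjusted p under 0.05, and 2 higher and 2 lower with size factors). Psma3, a subunit of the 20S core, had 317, 284, 291, 245 and 354 CPM in intact and 397, 425, 426, 667 and 442 CPM in separated embryos (log2 fold change 0.66 ± 0.22 (SE), adjusted p = 0.244), which overlapped only with size factors. Ribosome biogenesis genes had a median of 0.28 (76 tested, 2 at an unadjusted p under 0.05 in each direction, and 0 higher and 3 lower with size factors). Nifk, a nucleolar protein that binds the Ki-67 antigen, had 329 ± 108 and 487 ± 101 CPM (log2 fold change 0.56 ± 0.25 (SE), adjusted p = 0.397). SR splicing factors, CLK kinases and cold-induced proteins had a median of 0.42 (23 tested, 3 higher and 1 lower at an unadjusted p under 0.05, and 0 and 1 with size factors). Srsf2, a splicing activator, had 102, 70.4, 26.1, 114 and 30.6 and 142, 70.9, 189, 129 and 161 CPM (log2 fold change 1.01 ± 0.40 (SE), adjusted p = 0.301).

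Gene groups known to respond to handling and stress of cells held no call. Immediate early genes had the highest median of the 23 groups, 0.96 (17 of 33 tested with a 2-cell count, among them Egr1 and Jund but not Fos, 12 above 0), with a median standard error of 1.51 and 1 member, the kinase gene Sgk1, at an unadjusted p under 0.05 (0 with size factors). Over all 18 tested and relative to the median of all genes, the list median was 0.78 and, with size factors, 0.78. Sgk1 had 0, 1.81, 0, 11.2 and 1.16 CPM in intact and 30.9, 0, 28.8, 9.89 and 24.4 CPM in separated embryos, and no count in separated embryo 2 (log2 fold change 2.72 ± 1.27 (SE), adjusted p = 0.453). It stood at 0 in 5 of the 10 blastomere libraries. Heat shock and chaperone genes had a median of 0.12 (42 tested). Dnajb6, an Hsp40 co-chaperone, had 68.8, 102, 121, 142 and 119 and 191, 162, 158, 166 and 138 CPM (log2 fold change 0.56 ± 0.25 (SE), adjusted p = 0.408). Among genes of the unfolded protein response (median 0.13, 29 tested), the endoplasmic reticulum stress sensor Atf6 had 0, 0, 0.0997, 7.16 and 3.49 CPM in intact embryos and no count in separated embryos, at least 121-fold lower over a floor of 3 counts in the separated group. Intact embryo 4 gave 63 of the 91 counts (adjusted p = 0.213, edgeR). The p53 targets had a median of −0.14 (26 tested, 1 at an unadjusted p under 0.05 in each direction) and the BCL2 family 0.39 (15 tested).

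Genes of cell contact were mostly too scarce to bound. The adhesion, junctions and polarity list had a median of 0.32 (40 tested, 1 at an unadjusted p under 0.05 in each direction). Its median level was 9.07 CPM, and no member of at least 10 CPM had an interval within 2-fold. Ctnna1, alpha-catenin, which ties cadherins to actin, stood at 23.4, 37.5, 51.96, 14.9 and 42.3 CPM in intact and 111, 116, 47.6, 118 and 31.9 CPM in separated embryos. Separated embryos 1, 2 and 4 lay above all intact embryos, and 3 and 5 among them (log2 fold change 1.32 ± 0.48 (SE), adjusted p = 0.266). The tight junction gene Cldn4 had counts in 2 intact embryos, 3.74 and 0.341 CPM, and none in separated embryos. In the Hippo pathway (median 0.32, 21 tested), Tead4, the partner of YAP in the trophectoderm, had 0, 1.15, 0.199, 9.09 and 2.97 CPM in intact and 0, 0, 0, 0.591 and 0.0674 CPM in separated embryos (log2 fold change −4.23 ± 1.43 (SE), adjusted p = 0.244). The cytoskeletal list had a median of 0.14 (41 tested), and Cdc42, a small GTPase of cell polarity, had 605 ± 191 and 903 ± 234 CPM (log2 fold change 0.58 ± 0.24 (SE), adjusted p = 0.354).

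Metabolic gene groups had medians near or below that of all genes. Nuclear genes of oxidative phosphorylation had 0.12 (84 tested, 3 higher and 5 lower at an unadjusted p under 0.05). Ndufs1, the largest subunit of complex I, had 21.7, 0.658, 2.99, 9.31 and 10.3 CPM in intact and 1.701, 0.1602, 0.825, 1.16 and 1.35 CPM in separated embryos (log2 fold change −3.11 ± 0.95 (SE), adjusted p = 0.244), and intact embryo 2 lay among the separated values. Glycolysis and hypoxia genes had a median of −0.05 (25 tested). In the oxidative stress list (median 0.20, 30 tested), Gss, which completes glutathione synthesis, had no count in intact embryos and 4.52, 3.501, 3.495, 4.79 and 10.9 CPM in separated embryos, at least 63.4-fold higher over a floor of 3 counts (adjusted p = 0.244, edgeR). The cholesterol and lipid synthesis list had a median of 0.11 (29 tested, 4 higher and 2 lower at an unadjusted p under 0.05). Histone genes that depend on replication had a median of −0.08 (44 tested), but their messages mostly lack a poly(A) tail and oligo-dT catches them poorly. Lineage and pluripotency regulators had a median of 0.09 (28 tested).

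**Figure D5:**
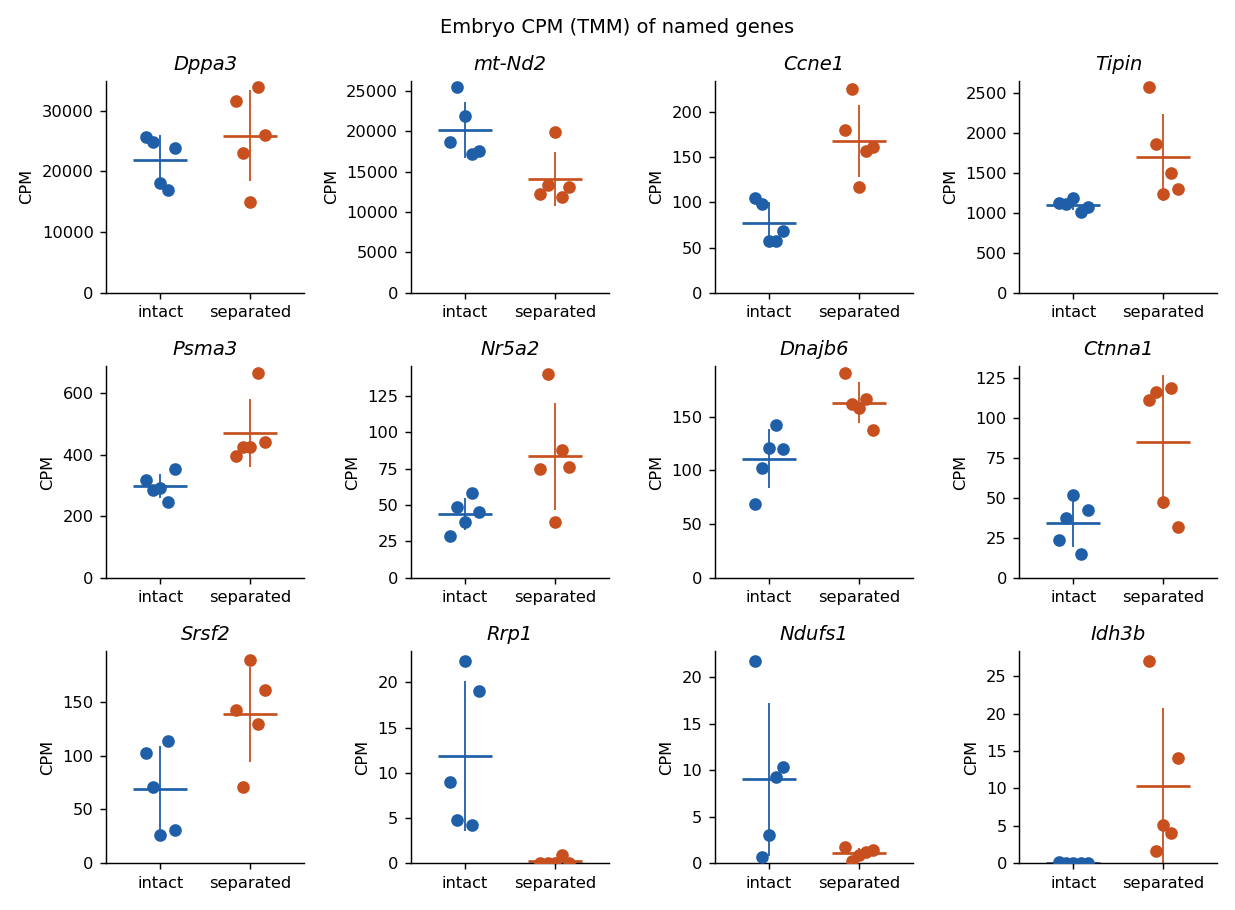
CPM (TMM) of 12 named genes in 5 intact (blue) and 5 separated (orange) embryos, with the mean as a horizontal and the SD as a vertical line; each axis starts at 0. Ccne1 lies at 57.4 to 105 CPM in intact and 117 to 226 CPM in separated embryos, Dppa3 overlaps fully, and of these 12 only Idh3b passed the adjusted threshold.

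Whether separation acted differently at the 2-cell and the 4-cell stage was asked with the interaction term of the same fit. At an adjusted p under 0.05, 0 of 14119 genes passed (0%, edgeR), while 1228 (8.7%) had an unadjusted p under 0.05 and DESeq2 called 521. For Ccne1 the separation effect was 1.12 at the 2-cell and 0.01 at the 4-cell stage (interaction adjusted p = 0.456). For Idh3b the effects were 8.41 and 0.49 (adjusted p = 0.296), and for Mast3 10.57 and −1.25 (adjusted p = 0.175). For Nr5a2 they were 0.93 and −0.39, and for Psma3 0.66 and 0.21. A p that misses the threshold does not show that the stages acted alike.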

How the data were processed

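Wild-type mouse embryos and blastomeres were measured by Smart-seq2 RNA sequencing. Per the submitters' processing notes, reads were trimmed (Trim Galore 0.6.10), aligned to GRCm38 (mm10; STAR 2.7.3a) and quantified (RSEM 1.2.28). The authors deposited expected counts (estimated counts that need not be whole) per gene in 1 table, with no normalization; 12.7% of its non-zero values are not whole. The annotation and strand use are not given in the sources used here. Of 55487 genes, 53243 matched GENCODE M21 by symbol and 227 by ID.

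Counts were rounded and sisters summed, which gave 19 embryos of 2.74 to 103 M (1000000) counts. The test was edgeR 4.0.16 quasi-likelihood (TMM, filterByExpr, 4 groups and batch as terms, Benjamini-Hochberg, 14119 genes). Standard errors follow from the log2 fold change and its F. Single values used exact permutation tests over embryos (252 regroupings), whose inversion gave intervals. Counting intervals and floors (3 counts over a group) cover counting error only, since PCR reads are not independent molecules. Depth allowed a floor of 0.0753 CPM over intact and 0.0177 CPM over separated embryos.

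Genes named are the 10 highest and 10 lowest passing with at least 10 CPM (none), the 10 most abundant and, of each list, up to 3 members with the smallest p; others are said to be chosen after their values were seen. Members and lists were chosen with earlier results of these data known. Alternatives were other scalings, filters, tools (DESeq2 1.42.0, limma 3.58.1 voom), thinning, single sisters and embryos left out. Tests were tested on simulated data. R 4.3.3, Python 3.11.15, scipy 1.17.1 and matplotlib 3.10.9 were used.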

Additional observations from a re-analysis of the deposited data

Results flagged for a closer look

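Within a group of 5 embryos, the embryo farthest from the others was set against Dixon's 95% limit (0.71 for 5 values), which chance passes in about 1 of 20 groups. Separated embryo 3 passed it for the share of counts in mitochondrially encoded genes, with 33.2% against 21.2 to 22.9% in the other separated embryos. It also did for the share of the 10 most abundant genes (36.4% against 26.6 to 28.7%) and of the 100 most abundant genes (53.2% against 45.4 to 47.5%). These shares hold many of the same counts. The other 35 of 38 groups of per-embryo measures did not pass.

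Of 90 groups of 45 named genes of at least 10 CPM, 10 passed (11.1%). Of these, 8 belong to genes given here. In separated embryo 3 they were mt-Rnr2 (129461 CPM against 83609 to 92390.2), mt-Nd2 (19946 CPM against 11928 to 13298) and Amhr2, a receptor of granulosa cells (8.64 CPM against 0.533 to 2.63). Psma3 stood apart in separated embryo 4 (667 CPM against 397 to 442) and the receptor gene Kit in separated embryo 1 (134 CPM against 32.97 to 59.5). In intact embryos the values were 11.2 CPM for Sgk1 in embryo 4 (others 0 to 1.81), 54.8 CPM for the chaperone gene Hspa14 in embryo 3 (others 17.6 to 26.5) and 200.1 CPM for Fbxw16 in embryo 2 (others 75.4 to 103). The cause was not tested for any of these values. By edgeR 0 genes passed the test of a difference between the stages (1228 at an unadjusted p under 0.05), and DESeq2 called 521.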

How the results depend on the processing

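The 2 calls between separated and intact embryos became 0 with only the 2-cell embryos in the fit and without the batch 2 embryos (132 and 1314 genes at an unadjusted p under 0.05). A minimum of 10 CPM removes both genes before testing and left 0 calls (170 genes at an unadjusted p under 0.05). They became 104 without a filter on low counts (49 of these without a count in 1 of the groups), 492 with DESeq2, 8 with limma voom, 5 with blastomere 1 alone and 10 with blastomere 2 alone. Idh3b and Mast3 were among the calls with DESeq2, limma voom, the size factors and sisters thinned to the same total. Embryos thinned to the lowest total gave 2 calls, which were other genes. Leaving out each 2-cell embryo gave 0 to 7 calls: 0 without intact embryo 1 (1366 at an unadjusted p under 0.05), 1 without separated embryo 2, 3 without intact embryo 5, 4 without separated embryo 1 or 4 or intact embryo 3, 5 without intact embryo 4, and 7 without separated embryo 5 or intact embryo 2. Idh3b kept its direction in every setting that gave it a value, with log2 fold changes of 7.60 to 11.17 when embryos were left out. The stage interaction went from 0 to 38 calls without a filter and 521 with DESeq2. The causes were not tested. The median log2 fold change of genes of 100 CPM and over, 0.18 with TMM, was −0.0296 with size factors, −0.0296 with DESeq2 and −0.0278 with embryos thinned, and 0.07 to 0.22 when embryos were left out. Ect2 reversed with blastomere 2 alone (−0.0806, against 0.79).

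The replicate block, with only the 2-cell embryos in the fit, gave 0 calls, as did that fit without the block (169 and 132 genes at an unadjusted p under 0.05). Same-numbered embryos share only a number: their deviations from the group means correlated at −0.0887 to 0.0208, and 1 of 5 intact embryos correlated best with its own number.

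The gap in genes found in single blastomeres was −1540.4 genes with a minimum of 5 counts and −1364 at 500000 counts, and passed in both and with each embryo left out. Under 1 CPM it was −1.603 points with 5 counts and −1.26 points at 500000 counts, and −4.64 to −3.07 points with embryos left out, where it mostly did not pass. At 100 to 1000 CPM it was −0.502 points with 5 counts, which passed, and −0.3304 to −0.151 points with embryos left out. The other per-embryo results kept their side of the threshold, and the spread ratios moved by less than their error. Depth limits the rest: a floor of 3 counts is 0.0753 CPM over the intact group and 0.0177 CPM over the separated group.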

Other observations

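With 2-cell embryos thinned to 7.16 M counts, genes of 10 to 100 CPM were found in all 5 intact embryos in 75.9% of cases and in all 5 separated embryos in 74.4%. At 1 to 10 CPM the shares were 15.2 and 15.3%, so in both groups most genes of that level were missing from at least 1 embryo.

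Marker genes of other cells varied between embryos. Amhr2, a granulosa cell receptor, stood at 10.8, 25.5, 0, 31.8 and 42.8 CPM in intact and 0.533, 1.99, 8.64, 0.6898 and 2.63 CPM in separated embryos (log2 fold change −2.94 ± 1.14 (SE), adjusted p = 0.293, edgeR), while the other 2 tested cumulus genes, Inhbb and Tnfaip6, had log2 fold changes of 5.42 ± 3.02 and 5.31 ± 2.20. Oaz3, a gene of sperm cells, had 18.4, 14.3, 22.4, 0 and 14.9 and 4.87, 0.0915, 5.0, 0 and 2.76 CPM (log2 fold change −2.46 ± 1.76 (SE), adjusted p = 0.882). Prm2, a protamine of sperm chromatin, had 9.28, 30.3, 0, 6.59 and 0 CPM in intact and 13.9, 0, 10.1, 0 and 0.0674 CPM in separated embryos, and Odf2 had counts in all 10 embryos (8.87 to 47.4 CPM). Prm1, Tnp1 and Tnp2 of the same list were at 0 in every 2-cell embryo. The part of these markers in the results was not tested.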
